A study of Mus musculus with 2 samples.

Results

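The genes described here are 71 solute carriers of the small intestinal epithelium, the membrane proteins that move amino acids, organic and inorganic anions, vitamins, carnitine and metals into and out of cells. They were chosen by name and abundance alone: gene expression features of the families Slc6a, Slc7a, Slc13a, Slc16a, Slc22a, Slc23a, Slc30a, Slc34a, Slc38a and Slc39a with at least 50 UMIs (unique molecular identifiers, each 1 captured RNA molecule) over all barcodes. Of 123 features with such names, 16 had no UMI and 35 had between 1 and 49, and 1 gene above the limit was left out by the rule. Members just inside the limit included Slc16a11 with 69 UMIs and Slc16a4 with 71, and the first outside it were Slc6a14 with 42, Slc39a2 with 29 and Slc6a3 with 24. The cells came from 1 mouse aged 55 weeks that carried a mutation of TrnA, the mitochondrial gene for alanine tRNA, at a load of 73%. Villus and crypt cells were released with EDTA, stained for CD45, CD31, TER-119 and CD326, sorted, fixed and turned into an RNA library and an ATAC library of the same cells with the 10x Multiome kit. The sort gates, the strain and any colitis treatment of this animal are not given in the sources used here, and control animals were not analysed here. Every comparison is therefore between groups of cells within this mutant mouse, and an effect of the mutation was not measured.

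Absorbing enterocytes of the villus carry nutrients across 2 membranes. Carriers of the brush border take up amino acids, phosphate, sulfate, dicarboxylates and ascorbate from the lumen, and exchangers of the basolateral membrane pass them on to the blood. Cells of the crypt divide and need cationic and large neutral amino acids for growth, while goblet, Paneth, enteroendocrine and tuft cells are secretory or sensory and export mucus, antimicrobial peptides, hormones or signals. Zinc is moved into the cytosol by the ZIP importers (Slc39a) and out of it, into granules, the Golgi or the blood, by the ZnT exporters (Slc30a).

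After filtering, 9872 cells were kept, with a median of 1547 UMIs of nuclear-encoded genes each, and levels are given as CPM, the UMIs of a gene per 1000000 of these. Cells were clustered without the carrier genes. The classes compared were enterocyte-like (2722 cells), crypt progenitor-like (2151 cells, stem-like and cycling-like clusters together), goblet-like (1481), Paneth-like (285), enteroendocrine-like (213) and tuft-like (100), and 2891 cells were left unnamed. The mitochondrially encoded share of UMIs was 78.0% for enterocyte-like cells and ran from 41.6% to 56.8% over the remaining 5 classes, so the choice of library size shifts each ratio against enterocyte-like cells. The summed level of 14 enterocyte markers was 32039.6 CPM in enterocyte-like cells, from 2838 to 6837 over the remaining 5 classes, and 4482 in 29 lymphocyte-like cells, which should lack them. These markers were thus 8.33-fold lower in crypt progenitor-like, 4.69-fold in goblet-like (9.91-fold without 1 goblet-like cluster, described below), 10.5-fold in Paneth-like, 6.99-fold in enteroendocrine-like and 11.3-fold in tuft-like cells, and a level of an enterocyte carrier that was lower by at least as much was read as no more than background there. The part of free RNA in any one value was not tested. Marker lists of fibroblasts, B and plasma cells and red cells were at or below 7.95 CPM in each of the 6 classes and that of endothelial cells at or below 26.9, while the myeloid list ran from 131 to 763 and was highest in enterocyte-like cells. With 1 animal there is no test: a member was called higher or lower at a ratio of 2 or more with at least 20 UMIs over both groups, and the 95% intervals are exact Poisson intervals or ratios of Poisson counts that cover counting error only. In whole sums of cells, fewer cells expressing a gene and less RNA per expressing cell cannot be told apart.

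The 250 bases upstream of the RefSeq start site (build GRCm38.p6) are shown for 5 members whose RNA marks a cell class or a gut segment, so that their promoter values below can be set beside the sequence. Of the 71 members, 51 had entries in the RefSeq promoter table, with 66 start sites in all. Capitals mark matches on either strand to any of the 5 motifs searched, whose letters are given after the sequences, and matches that overlap run together.
Slc7a11, chr3:50443614-50443863, minus strand: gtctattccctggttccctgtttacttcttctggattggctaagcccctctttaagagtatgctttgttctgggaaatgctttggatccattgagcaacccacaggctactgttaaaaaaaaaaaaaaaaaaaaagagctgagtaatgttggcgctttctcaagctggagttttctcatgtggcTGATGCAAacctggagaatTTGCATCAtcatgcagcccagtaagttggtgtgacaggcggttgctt
Slc7a9, chr7:35448842-35449091, plus strand: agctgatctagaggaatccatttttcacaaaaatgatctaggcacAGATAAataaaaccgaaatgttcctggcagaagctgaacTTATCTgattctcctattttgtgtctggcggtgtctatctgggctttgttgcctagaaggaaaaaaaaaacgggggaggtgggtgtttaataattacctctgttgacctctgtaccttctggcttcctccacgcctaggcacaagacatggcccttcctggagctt
Slc34a2, chr5:53049103-53049352, plus strand: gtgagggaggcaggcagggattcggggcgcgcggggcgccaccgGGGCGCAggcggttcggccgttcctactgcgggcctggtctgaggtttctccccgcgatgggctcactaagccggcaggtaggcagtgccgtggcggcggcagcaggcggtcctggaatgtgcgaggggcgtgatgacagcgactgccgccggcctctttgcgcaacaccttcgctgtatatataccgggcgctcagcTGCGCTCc
Slc13a2, chr11:78422235-78422484, minus strand: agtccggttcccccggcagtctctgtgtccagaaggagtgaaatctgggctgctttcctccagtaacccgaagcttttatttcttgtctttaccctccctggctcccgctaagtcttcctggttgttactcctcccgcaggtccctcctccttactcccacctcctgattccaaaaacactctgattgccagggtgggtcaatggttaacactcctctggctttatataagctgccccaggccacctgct
Slc38a11, chr2:65364027-65364276, minus strand: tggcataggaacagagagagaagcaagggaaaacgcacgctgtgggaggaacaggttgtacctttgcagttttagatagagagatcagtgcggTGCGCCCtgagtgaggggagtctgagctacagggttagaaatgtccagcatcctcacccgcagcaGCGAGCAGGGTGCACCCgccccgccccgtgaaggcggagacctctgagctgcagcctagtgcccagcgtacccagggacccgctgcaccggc
Slc7a11, the cystine and glutamate exchanger whose RNA was highest in goblet-like cells, carried 2 matches to the amino acid response motif TGATGNAA in opposite orientation, at bases -66 to -59 and -47 to -40 from the start. Of the 66 member promoters 6.06% held that motif (those of Slc23a3, Slc7a11 and Slc7a7), against 3.45% of 32851 RefSeq promoters. Slc7a9, the light subunit of the brush border cystine and cationic amino acid exchanger, had 2 GATA-type matches upstream of the first of its 2 RefSeq promoter entries, at -205 to -200 and -166 to -161. The deposited gene coordinates also give an earlier start, at 35448796, before the first base printed (35448842). These matches are thus not upstream of every start. The letters searched for these were AGATAA, and 9.09% of member promoters and 9.99% of all promoters held them. The metal response motif, TGCNCNC, is short and stood in 45.5% of member promoters and 44.4% of all, with 4 matches in Slc38a11 and 2 in Slc34a2. The HNF4-type motif CAAAGTCCA was in 0% of member promoters and 0.384% of all, and the CDX-type motif TTTATNG in 3.03% (those of Slc39a10 and Slc7a15) and 9.81%. A match is a description of the letters and not of a bound site.

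Enterocyte-like cells held the largest group of class-marking carriers. The level of 19 of the 71 members was at least 2-fold that in each of the other 5 classes, where 5.61% of 14461 genes had such a level in these cells. The 71 members together took 0.619% of nuclear-encoded UMIs in enterocyte-like cells and from 0.281% to 0.394% over the remaining classes. The 19 comprised all 3 brush border amino acid carriers (Slc7a9, Slc6a20a and Slc6a20b), the amino acid exchanger Slc7a7, the aromatic amino acid carriers Slc7a15 and Slc16a10, the creatine carrier Slc6a8, the monocarboxylate carriers Slc16a3 and Slc16a5, 5 of 7 anion and vitamin carriers (Slc34a2, Slc13a1, Slc13a2, Slc23a1 and Slc23a4), the carnitine and ergothioneine carriers Slc22a4 and Slc22a5, Slc22a13b, the zinc importer Slc39a4 and the manganese exporter Slc30a10. The anion and vitamin role, here and below, was set by gene family and includes Slc23a4, which carries nucleobases in rodents. With UMIs of all kinds as library size, 9 of the 19 kept this margin, among them Slc34a2, Slc13a1, Slc13a2, Slc7a9, Slc7a15, Slc23a1 and Slc30a10, against 1.61% of all genes. Slc16a10 was the closest of the 19 to another class, at 496 CPM against 242 in enteroendocrine-like cells, and with all UMIs as library size it was higher in the latter.

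**Figure D1:**
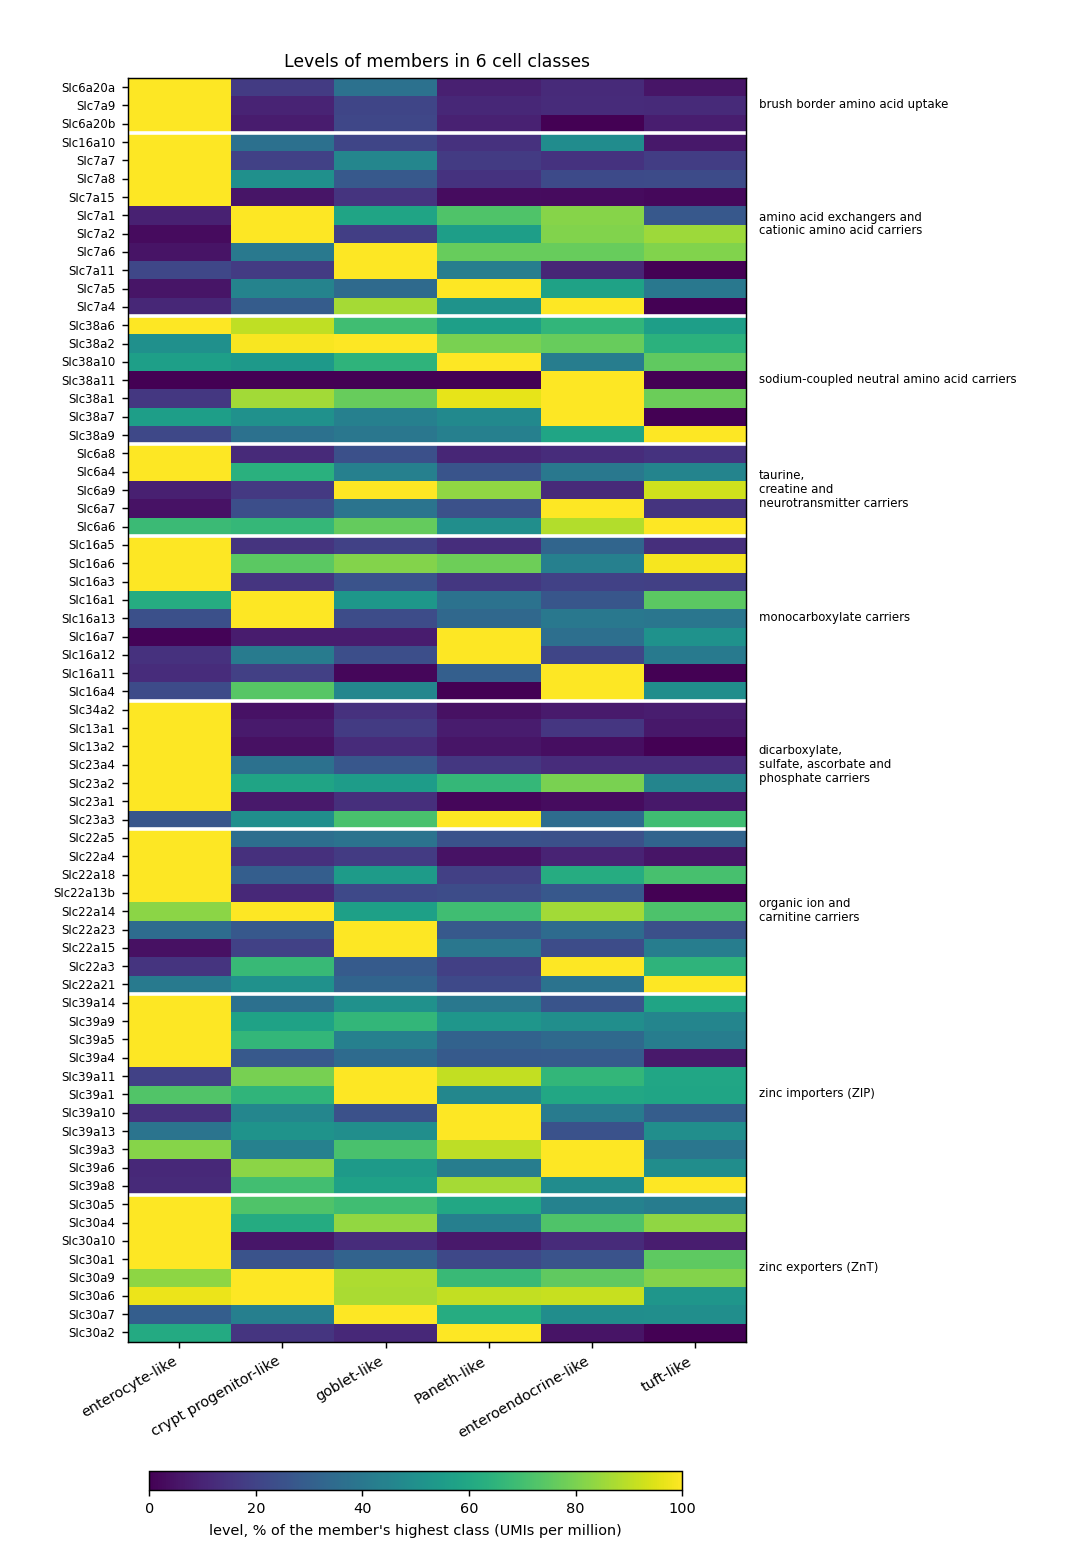
Level of each member drawn (rows, grouped by role) in 6 cell classes (columns), as a percentage of that member's highest class, from CPM (UMIs per 1000000 nuclear-encoded UMIs) of 1 animal. Yellow marks the highest class. The brush border, anion and vitamin carriers are mostly highest in enterocyte-like cells, and Slc38a11 is near 0% outside enteroendocrine-like cells.

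Amino acid carriers lay on both sides of the comparison of crypt with villus cells. Of 70 members compared between crypt progenitor-like and enterocyte-like cells, 18 were higher in the crypt and 23 lower, or 25.7% and 32.9%, where 34.6% of 12953 genes were higher and 14.5% lower. The median log2 ratio was -0.15 over the members and 0.48 over all genes. With UMIs of all kinds as library size every log2 ratio was larger by 0.97, and the split became 31 higher and 17 lower. The medians were then 0.82 over the members and 1.45 over all genes. The shares of all genes called on that scale are not given, here or below. The share of members that were lower was thus above the background on the first scale, and the share that were higher was below it.

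The crypt-high members were led by carriers of cationic and large neutral amino acids. Slc7a2, a cationic amino acid carrier, stood at 28.3 CPM in crypt progenitor-like cells (190 UMIs) and 0.802 in enterocyte-like cells (3 UMIs), a 35.4-fold difference with an interval of 11.9 to 173. Slc7a1, the main arginine and lysine importer of growing cells, was at 189 against 17.6, 10.7-fold higher (8.36 to 13.9). Both carriers stood apart in the same direction, with intervals far above 1. Slc7a5, the large neutral amino acid carrier that pairs with the heavy chain Slc3a2, was at 19.2 against 2.41 (ratio interval 4.09 to 17.9), and Slc7a6, which pairs with the same chain, was 7.54-fold higher (3.32 to 21.1). Slc3a2 itself went the other way, at 47.4 CPM in the crypt and 113 in enterocyte-like cells. Slc38a1, a sodium-coupled glutamine carrier, was at 95.6 against 17.9, or 5.34-fold higher (4.15 to 6.98), and was the 1 of 6 compared members of its role that passed the limit in the crypt. The glutamine carrier Slc1a5, from the list of partner genes, was 14.1-fold higher in the crypt (9.64 to 21.3).

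The other crypt-high members included ZIP importers, monocarboxylate carriers and organic ion carriers. Slc39a8, an importer of zinc and manganese, was at 50.6 against 8.55 CPM (5.91-fold, 4.11 to 8.78). Slc39a11 was 4.14-fold higher (3.43 to 5.04) and Slc39a10 3.35-fold (2.16 to 5.40), which with Slc39a6 made 4 of 11 ZIP importers higher and 2 lower, a share of higher members near the 34.6% of all genes. None of 8 ZnT exporters was higher and 3 were lower. Among 10 monocarboxylate carriers 5 were higher, each from a low level: the largest summed count among them was 59 UMIs in the crypt, for Slc16a13, the 1 member that was at least 2-fold higher in the crypt than in each other class (8.80 CPM, where 3.26% of genes met that rule). Slc6a7, a proline carrier, and Slc22a15 were 4.89-fold and 4.43-fold higher.

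The largest gaps among the members lower in the crypt belonged to carriers of phosphate, dicarboxylates, sulfate, ascorbate, amino acids and manganese. Slc13a2, a dicarboxylate carrier of the brush border, was at 8.80 CPM in crypt progenitor-like cells and 198 in enterocyte-like cells, 22.5-fold lower (17.2 to 29.9). Slc34a2, the sodium phosphate carrier of the brush border, was at 20.4 against 425 (20.8-fold lower, 17.4 to 24.9). Both gaps were wider than the 8.33-fold gap of the enterocyte markers, so the crypt levels were at or below background. Slc7a15 was 17.4-fold lower, Slc30a10 16.1-fold, the ascorbate carrier Slc23a1 14.3-fold, the sulfate carrier Slc13a1 13.7-fold and Slc7a9 10.1-fold. Slc6a8 (8.48-fold lower, 7.24 to 9.98) and Slc22a4 (7.15-fold, 5.82 to 8.84) had gaps whose intervals hold that of the markers. Smaller gaps, with crypt levels above that background, were found for the brush border proline carrier Slc6a20a (104 against 597, 5.72-fold, 5.25 to 6.24) as well as for the basolateral Slc7a7 (63.3 against 326, 5.15-fold) and Slc16a10 (183 against 496, 2.71-fold). Slc23a4 (2.67-fold), the carnitine carrier Slc22a5 (2.77-fold), Slc22a18 (3.36-fold) and the zinc carriers Slc39a14 (2.70-fold), Slc39a4 (3.58-fold), Slc30a1 (3.93-fold) and Slc30a2 (3.94-fold) lay there too. The crypt sums include cluster 14, 177 cycling-like cells with a median Scrublet score of 0.220 and 10460.4 CPM of enterocyte markers. Clusters 2 and 7 had scores of 0.0509 and 0.0378 and 2901 and 2559 CPM. Crypt levels without cluster 14 are not given, so how far the background and these gaps rest on it is open. By role, 3 of 3 brush border amino acid carriers and 5 of 7 anion and vitamin carriers were lower, with none higher in either role. Of the listed partners, 6 of 8 compared amino acid and peptide genes and 7 of 9 compared anion genes were lower too, among them the peptide carrier Slc15a1 (15.9-fold lower) and the sodium monocarboxylate carrier Slc5a12 (20.9-fold), while 1 of 6 zinc and metal buffering genes was.

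**Figure D2:**
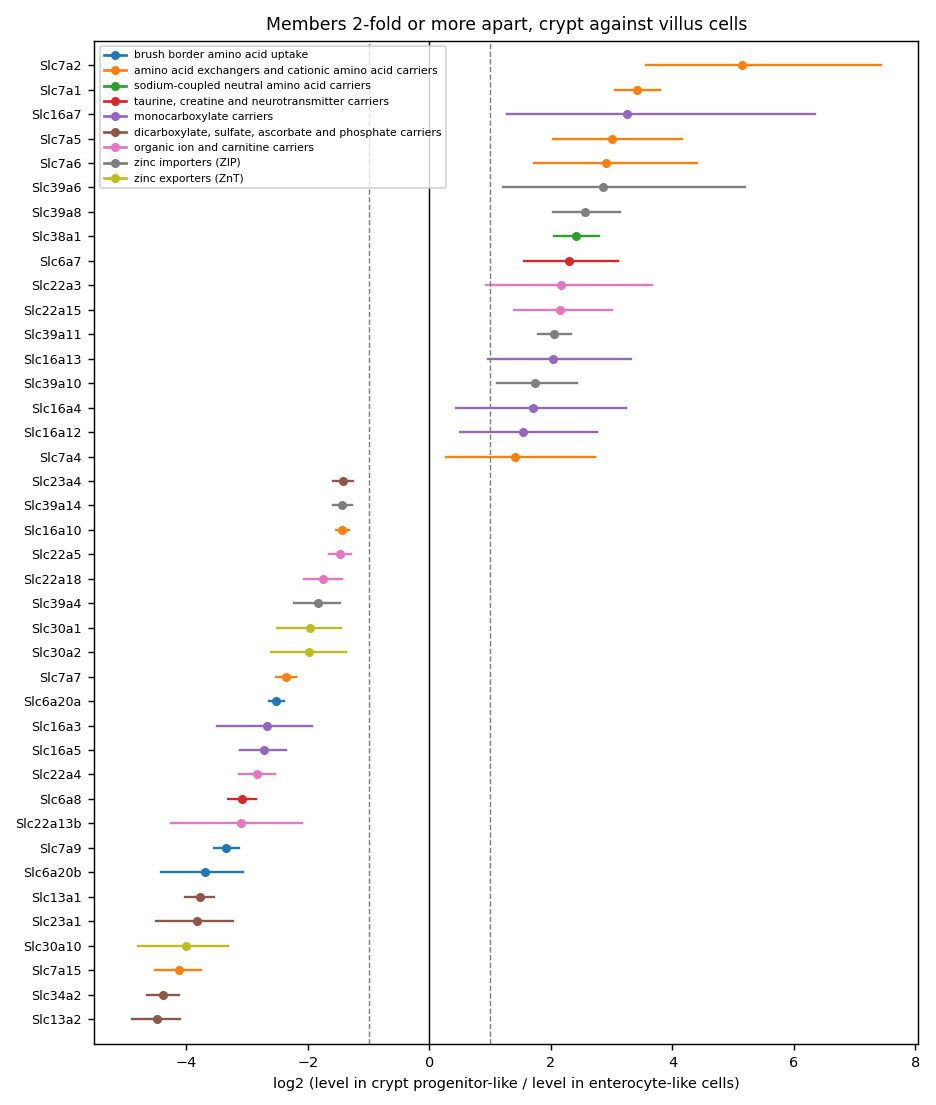
Log2 ratio of crypt progenitor-like over enterocyte-like level for members called higher or lower, as points with 95% counting intervals, coloured by role. Dashed lines mark the 2-fold limit. Slc7a2 is the highest point, at 5.14, and Slc13a2 the lowest, at -4.49.

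Within the crypt, the stem-like cluster led by Lgr5 and the main cycling-like cluster differed less. Of 61 members compared 6 were higher in the stem-like cluster and 5 lower, where 5.07% and 3.46% of genes were. Slc7a2 was at 50.6 CPM in the stem-like cluster and 24.4 in the cycling-like one, 2.07-fold higher (1.53 to 2.81), and Slc7a6 at 21.6 against 9.12. The villus carriers Slc13a1 (5.68 against 23.6), Slc6a20a (37.5 against 107) and Slc7a8 (42.6 against 112) were lower in the stem-like cluster. Each of these values was below the level of the same gene in enterocyte-like cells except those of Slc7a2 and Slc7a6, which were above it.

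Goblet-like cells were compared over 67 members, of which 18 were higher than in enterocyte-like cells and 24 lower, against 21.2% and 11.3% of 12293 genes. The median log2 ratio was -0.34 over the members and 0.19 over all genes. On the scale of all UMIs, where log2 ratios are larger by 1.09, 28 were higher and 13 lower, with medians of 0.74 over the members and 1.28 over all genes. Slc22a23, an orphan member of the organic ion family, was the most abundant goblet marker among the carriers: it stood at 499 CPM (479 to 519) there. Tuft-like cells were at 121, crypt progenitor-like at 137, Paneth-like at 139, enteroendocrine-like at 175 and enterocyte-like cells at 177. Its goblet level lay 2.81-fold above the next class, and the other 5 classes spanned a narrow range. Slc22a15, a carrier of zwitterions such as carnitine, was at 97.8 CPM in goblet-like cells, 2.36-fold above the 41.4 of tuft-like cells, whose interval of 21.4 to 72.3 rests on 12 UMIs. Slc7a11 was at 16.2 CPM (12.8 to 20.2, 80 UMIs) and at most 6.96 in the other 5 classes. These 3 were the members with a goblet level at least 2-fold that of each other class, where 1.03% of genes met that rule, and Slc7a11 missed it on the scale of all UMIs.

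Other carriers with high goblet levels were shared with further classes. Slc30a7, which loads zinc into the Golgi, was at 237 CPM, 3.36-fold the enterocyte-like level (2.94 to 3.86) and above the 147 of Paneth-like cells. Slc6a9, a glycine carrier, was at 29.8 in goblet-like, 24.9 in Paneth-like and 27.6 in tuft-like cells, and at or below 4.92 in the other classes. Slc39a11 was at 174 CPM, 5.20-fold higher than in enterocyte-like cells (4.30 to 6.32), and Slc7a1 at 110.2, 6.25-fold higher (4.83 to 8.19). Goblet-like cells were lowest, relative to enterocyte-like cells, for Slc13a2 (8.15-fold), Slc30a10 (7.92-fold), Slc23a1 (7.50-fold), Slc34a2 (7.11-fold) and Slc7a15 (6.57-fold), beside 4.69-fold for the enterocyte markers. These levels rest on cluster 11, 274 of the goblet-like cells with a median of 5208 nuclear-encoded UMIs, a median Scrublet score of 0.173 and 13133 CPM of enterocyte markers, where clusters 5 and 6 had scores of 0.0358 and 0.0589 and 3629 and 2930.3 CPM. Without cluster 11 the markers were 9.91-fold lower and Slc13a2 28.3-fold, Slc30a10 27.2-fold, Slc23a1 55.7-fold (3 UMIs), Slc34a2 18.8-fold and Slc7a15 21.6-fold lower, while Slc22a23 was 3.22-fold and Slc7a11 6.05-fold higher than in enterocyte-like cells. The count of members lower was then 28, and the share of all genes lower without cluster 11 is not given.

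The goblet-marking carriers Slc22a23 and Slc7a11 also differed between the 2 main goblet-like clusters. Cluster 5, with 111686 CPM of goblet markers, and cluster 6, with 28660.0 and more cycling markers, were compared over 53 members: 8 were higher in cluster 5 and 15 lower, where 7.08% and 26.9% of 10221 genes were, so the lower share was that of genes at large. Slc22a23 was at 859.6 CPM in cluster 5 and 347 in cluster 6 (2.48-fold, 2.24 to 2.73), Slc7a11 at 38.1 and 7.88 (4.84-fold, 2.64 to 9.46) and Slc6a9 at 54.3 and 16.9 (3.21-fold, 2.08 to 5.09). The goblet-marking carriers Slc22a23 and Slc7a11 were thus higher in the cluster with more goblet markers, and the values of Slc22a15 in these clusters are not given here. Among the lower ones, Slc39a11 was at 98.3 in cluster 5 and 271 in cluster 6, Slc7a1 at 74.1 and 168, Slc38a1 at 54.3 and 125, and Slc39a8 at 27.1 and 64.7.

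Paneth-like cells were compared over 61 members, with 16 higher and 26 lower than in enterocyte-like cells, against 18.0% and 23.0% of 10861 genes. The medians of the log2 ratio were -0.72 over the members and -0.14 over all genes, and on the scale of all UMIs, which adds 1.41, the split was 27 higher and 17 lower. The medians on the latter scale were 0.69 over the members and 1.26 over all genes. Slc16a7, a high-affinity pyruvate and lactate carrier, stood at 67.6 CPM in Paneth-like cells (52.5 to 85.7, 68 UMIs) and 0.535 in enterocyte-like cells (2 UMIs), a ratio of 126 with an interval of 33.7 to 1066. It was at 34.5 in tuft-like and 24.7 in enteroendocrine-like cells and near 5 in crypt and goblet cells (5.07 and 5.06). Slc39a10, a zinc importer, was at 46.7 (34.3 to 62.1) and Slc16a12, a creatine and monocarboxylate carrier, at 16.9 (9.85 to 27.1), and these 2 were the members with a Paneth level at least 2-fold that of each other class, where 1.21% of genes had one. Slc30a2, which loads zinc into secretory granules, was at 33.8 in Paneth-like cells (23.4 to 47.2) and 20.6 in enterocyte-like cells, and at or below 5.22 in the other 4 classes. With UMIs of all kinds as library size 5 members had such a Paneth level, the 2 above and Slc30a2, Slc16a7 and Slc39a13, against 2.09% of genes, so Slc30a2 marked Paneth-like cells on that scale and not on the first. Slc7a5 had its highest level here, at 42.8, 17.8-fold that of enterocyte-like cells (8.55 to 41.5). Among the lower members Slc23a1 had 1 UMI in Paneth-like cells, and Slc7a15 was 28.8-fold lower (13.1 to 78.7), Slc34a2 22.5-fold (14.3 to 37.4) and Slc22a4 20.7-fold (9.46 to 56.8), beside 10.5-fold for the markers.

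**Figure D3:**
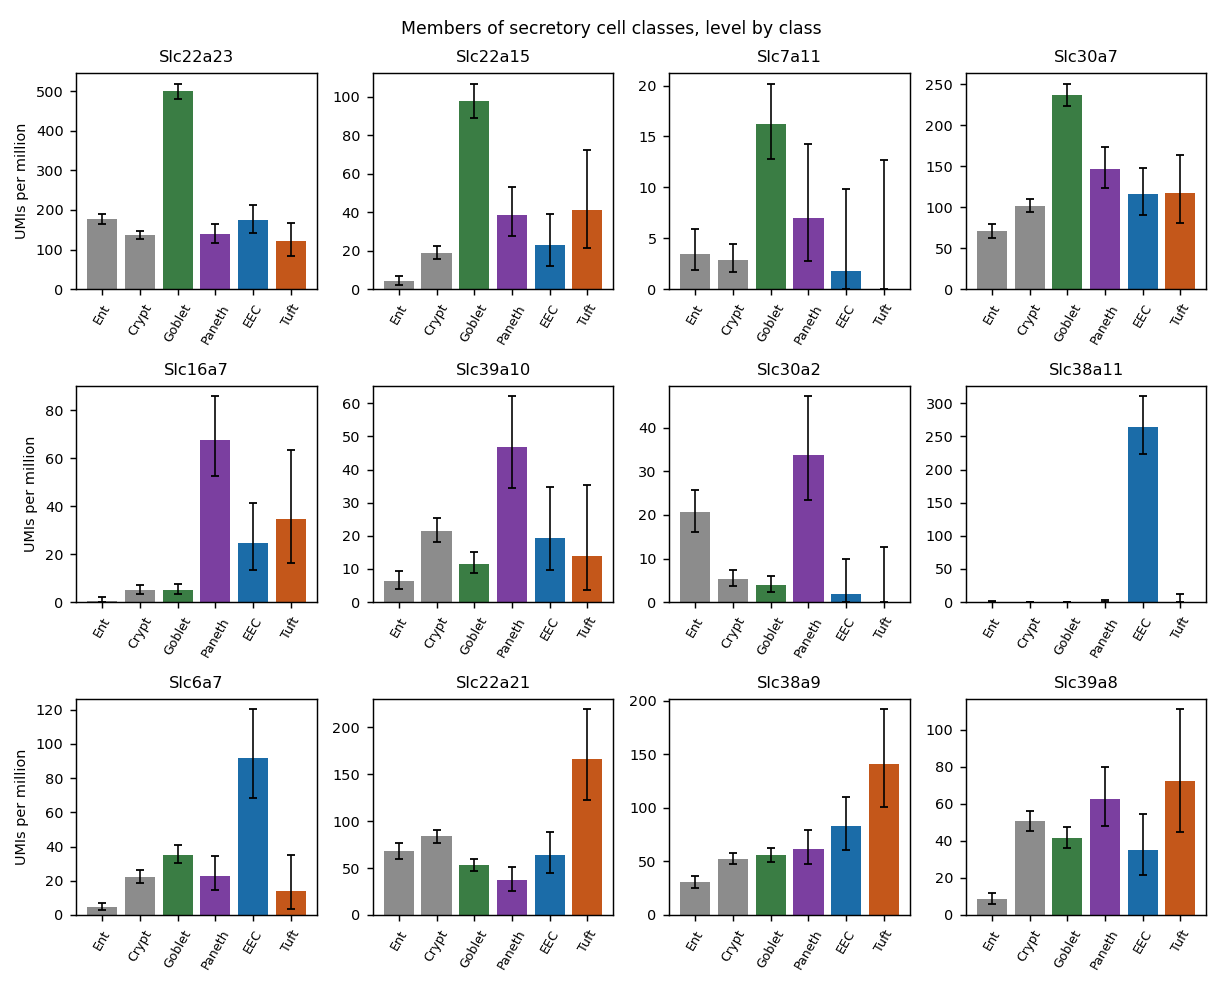
Level in CPM (UMIs per 1000000 nuclear-encoded UMIs) of 12 members in enterocyte-like (Ent), crypt progenitor-like (Crypt), goblet-like, Paneth-like, enteroendocrine-like (EEC) and tuft-like cells of 1 animal. Bars are levels and error bars 95% Poisson intervals. Slc22a23 peaks in goblet-like cells at 499, Slc16a7 in Paneth-like cells at 67.6 and Slc38a11 in enteroendocrine-like cells at 265.

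Enteroendocrine-like cells, which release hormones and serotonin, were compared over 57 members, with 11 higher and 29 lower, against 25.2% and 17.1% of 10895 genes. The medians were -1.02 and 0.19, and on the scale of all UMIs (1.20 added) 21 were higher and 15 lower. The medians on the latter scale were 0.19 over the members and 1.39 over all genes. Slc38a11, a little-studied relative of the glutamine carriers, stood at 265 CPM (224 to 310.5, 150 UMIs). It had 3 UMIs in enterocyte-like cells, 1 in crypt progenitor-like cells and 0 in goblet-like, Paneth-like and tuft-like cells, a wider gap than for any other member between the highest and the next class. At least 1 UMI was seen in 42 of 213 enteroendocrine-like cells (19.7%, exact binomial interval 14.6 to 25.7) and in 9 of 9659 other cells (0.0932%, 0.0426 to 0.177), with median depths of 2320 and 1527 nuclear-encoded UMIs. The UMIs lay in the serotonin-making cells: the 45 cells with 2 or more UMIs of Tph1, the enzyme of serotonin synthesis, held 130 of the 150 UMIs, or 1211 CPM (1012 to 1438), and the other 168 cells 43.5 (26.6 to 67.2), at median depths of 2103 and 2392. No UMI of Slc38a11 was found in the 25 cells with 2 or more UMIs of Cck, which allows up to 43.0 CPM, or in the 17 with Sst, which allows up to 82.8.

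Slc6a7 was at 91.7 CPM in enteroendocrine-like cells (68.5 to 120.3), 2.60-fold the next class, goblet-like cells at 35.2. It did not follow Tph1: the cells with 2 or more Tph1 UMIs were at 102 (51.2 to 183) and the others at 89.2 (64.0 to 121). The neurotensin cells, 31 with 2 or more UMIs of Nts, were at 252 (147 to 403) and the other 182 at 70.1 (48.8 to 97.5), and these hormone splits were made after the data had been seen. Slc16a11 was at 22.9 (13 UMIs) and completed the 3 members with an enteroendocrine level at least 2-fold each other class, where 5.39% of genes had one. Slc7a1 was 8.80-fold higher than in enterocyte-like cells (6.32 to 12.3). Slc6a20b had 0 UMIs here and was at least 8.08-fold lower (against a floor of 3 UMIs), Slc7a15 was 32.4-fold lower (3 UMIs) and Slc13a2 28.1-fold lower (10.9 to 103, 4 UMIs).

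Tuft-like cells were few, and 54 members could be compared, with 9 higher and 25 lower than in enterocyte-like cells, against 23.3% and 17.1% of 10365 genes. The medians were -1.10 and 0.16, and on the scale of all UMIs (1.03 added) the split was 15 higher and 18 lower. The medians on the latter scale were -0.07 over the members and 1.19 over all genes. Slc22a21, a carnitine carrier next to Slc22a4 and Slc22a5 in the genome, was at 166 (122 to 219), 1.98-fold the next class, where 3.51% of genes had a tuft level at least 2-fold that of each other class. Slc38a9, a lysosomal carrier that senses arginine, was at 141 (101 to 192), 4.64-fold the enterocyte-like level (3.17 to 6.69). Slc39a8 had its highest level here, at 72.4 (44.8 to 111), with an interval that overlaps that of Paneth-like cells. Slc13a2 had 0 UMIs in tuft-like cells and was at least 19.1-fold lower, and Slc6a20a was 17.3-fold lower on 10 UMIs.

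Position along the villus was read within enterocyte-like cells from landmark genes that are no members: 1129 cells with at least 10 landmark UMIs were ranked by their share of upper-villus landmarks and cut into 3 bins. Such bins are ranges and not cell types, and 286 cells lay within 5 percentage points of a cut. They leave out the unnamed cluster 8, described below, which had 26474 CPM of upper-villus landmarks against 13126 in the upper bin. Of 47 members compared 3 were higher in the upper than in the lower bin and 5 lower, or 6.38% and 10.6%, where 5.09% and 8.98% of 8021 genes were, so these shares were close to the background. On the scale of all UMIs, which takes 0.59 off each log2 ratio, 1 was higher and 16 lower, with medians of -0.65 over the members and -0.70 over all genes. Slc23a4, a nucleobase carrier of rodents, was at 49.4 CPM in the lower bin, 167 in the middle and 561 in the upper (504 to 623), 11.4-fold higher at the top than at the base (8.53 to 15.4). Slc6a8 was at 165, 261 and 335, 2.03-fold higher (1.66 to 2.49), and Slc23a1 at 25.1, 55.1 and 51.3, 2.04-fold (1.19 to 3.52). Slc23a4 had the clear step between bins, while Slc23a1 was level from the middle bin up, and without Apoa4 among the landmarks its ratio was 1.00, that of Slc6a8 1.94 and that of Slc23a4 21.7.

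The members lower at the top included a sulfate, a serotonin, an ascorbate and 2 zinc carriers. Slc13a1 was at 646 CPM in the lower bin, 235 in the middle and 181 in the upper, 3.56-fold lower at the top (2.92 to 4.38). Slc6a4, the serotonin carrier that clears serotonin into enterocytes, was at 53.9, 33.9 and 12.8 (4.20-fold lower, 2.00 to 10.2). Slc39a5, a zinc importer, was at 107, 62.2 and 35.3, and Slc30a1, a zinc exporter, at 55.7, 22.6 and 22.4. Slc39a5 was lower in each bin than in the one before it, and Slc30a1 differed between the lower and the middle bin. Slc23a2, an ascorbate carrier of the basolateral membrane, was at 159, 103 and 64.1, while Slc23a1 was not lower at the top.

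Segment bins were cut in the same way from proximal and distal landmarks in 563 cells, with 103 of them within 5 points of a cut. Of 45 members compared 5 were higher in the distal than in the proximal bin and 7 lower, or 11.1% and 15.6%, where 6.01% and 6.29% of 6993 genes were, and the split was the same on the scale of all UMIs. Slc34a2 was at 126 CPM in the proximal bin, 534 in the middle and 663 in the distal one, 5.25-fold higher distally (4.08 to 6.86). Slc13a2 was at 99.6, 223 and 311, 3.12-fold higher (2.31 to 4.28). Slc13a1 was at 329, 89.2 and 1006: it was 3.06-fold higher distally (2.59 to 3.62) but lowest in the middle bin. The phosphate and dicarboxylate carriers were thus higher in each bin than in the one before it, and the sulfate carrier was not. Slc30a1 was at 24.9, 27.2 and 79.7 (3.20-fold higher distally, 1.74 to 6.27), and Slc39a1 was higher on 26 UMIs in all.

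The members lower distally included the basolateral amino acid exchanger Slc7a8, Slc23a2 and Slc16a6, a carrier of ketone bodies and taurine. Slc7a8 was at 350.2 CPM in the proximal bin, 241 in the middle and 112 in the distal one (3.14-fold lower distally, 2.38 to 4.18). Slc23a2 was at 233, 101 and 78.1 (2.98-fold, 2.13 to 4.23) and Slc16a6 at 105, 46.6 and 19.1 (5.48-fold, 2.92 to 11.2). All 3 were lower in each bin than in the one before it. By role, 3 of 6 compared anion and vitamin carriers were higher distally and 2 lower, and none of the 6 compared organic ion carriers differed by 2-fold. The other 4 were lower distally on fewer than 50 UMIs each: Slc23a1 (55.1, 64.0 and 14.3), Slc30a10 (3.55-fold, 1.76 to 7.74), the brush border carrier Slc6a20b (2.97-fold, 1.33 to 7.27) and the zinc exporter Slc30a6 (2.32-fold, 1.12 to 5.07).

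**Figure D4:**
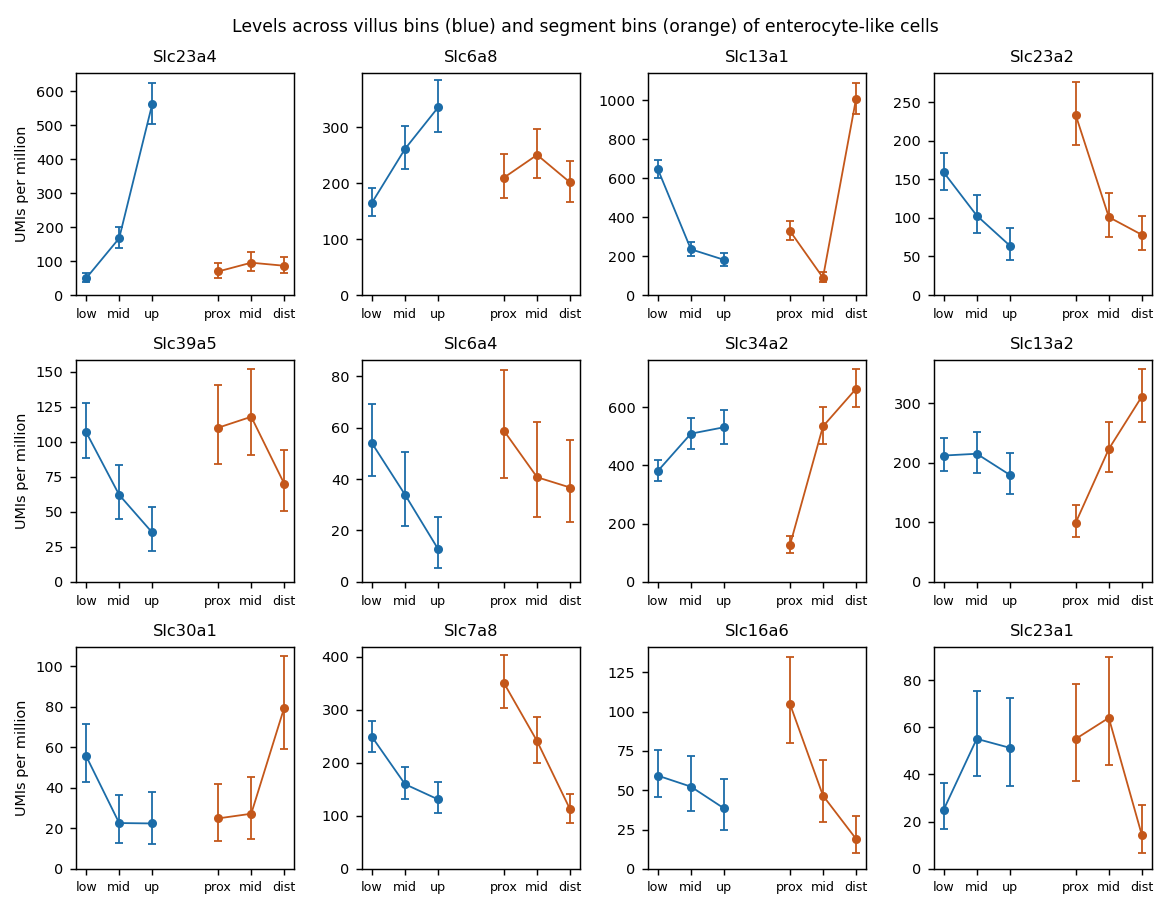
Level in CPM (UMIs per 1000000 nuclear-encoded UMIs) of 12 members in the lower, middle and upper villus bins (blue) and the proximal, middle and distal segment bins (orange) of enterocyte-like cells, with 95% Poisson intervals. Slc23a4 reaches 561 in the upper villus bin, Slc34a2 goes from 126 to 663 along the gut, and Slc13a1 is lowest in the middle segment bin at 89.2.

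Villus and segment position were not independent, since the lower villus bin held 122 distal and 86 proximal cells and the upper one 17 and 55. Within a segment some differences along the villus stood and others did not. Slc23a4 went from 22.1 in lower to 214 in upper villus cells of the proximal bin (8.90 to 45.6 and 140.0 to 314), and from 44.3 to 472 in those of the distal bin. Slc13a1 went from 471 to 90.7 proximally and from 1139 to 591 distally, the latter less than 2-fold. Within both segments Slc23a4 was thus higher and Slc13a1 lower at the top. Slc6a8 went from 139 to 363 proximally but from 177 (141 to 221) to 256 (136 to 438) distally, and Slc30a1 from 93.1 (67.1 to 126) to 59.1 (12.2 to 173) distally, with intervals that overlap. Slc23a1 had 2 UMIs in lower and 0 in upper villus cells of the distal bin, where its direction could not be read. Proximally, Slc6a4 went from 72.7 (46.1 to 109) to 33.0 (8.99 to 84.5), and Slc39a5 from 123 (87.7 to 169) to 82.5 (39.5 to 152). Distally they went from 46.5 (28.8 to 71.1) and 86.4 (61.5 to 118) to 0 UMIs, which allows up to 72.6. The intervals overlap in each case, so neither fall was clear within a segment. Slc34a2 was at 56.9 and 601 in lower villus cells of the proximal and distal bins and at 223 and 1004 in upper ones, so it was higher distally at both heights and higher toward the top in both segments.

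Clusters were not cut by landmark shares, but the landmark genes were not left out of the clustering. Cluster 4 held 174 of the 188 distal-bin cells, and cluster 12 held 158 of the 190 proximal-bin cells. The same order of Slc34a2 in these clusters is therefore no independent check of the segment bins. Between enterocyte-like cluster 4 and enterocyte-like cluster 12, 6 of 49 members were higher in cluster 4 and 8 lower, where 7.57% and 6.35% of 8599 genes were. Cluster 4 had 748 CPM of Slc34a2 and cluster 12 had 102 (7.36-fold, 5.78 to 9.50). Slc23a4 was at 342 and 33.4 in them, while its proximal and distal bins were at 69.3 and 86.1. Cluster 8, 528 cells with the highest upper-villus landmarks of all clusters that were not named as a class, had 1453 CPM of Slc23a4 against 109.9 in the enterocyte-like cluster 0, 13.2-fold higher (11.2 to 15.8). In that pair 2 of 49 members were higher in cluster 8 and 21 lower, where 6.55% and 22.0% of 8406 genes were. The lower ones included Slc7a15 (13.9 against 196), Slc7a8 (23.8 against 222), Slc6a20a (89.4 against 636) Slc16a10 (95.3 against 609) and Slc7a7 (101 against 253), whereas Slc7a9 was at 282 against 306 and Slc34a2 at 528 against 239. Cluster 8 and cluster 0 both had shallow cells, with medians of 696 and 761 nuclear-encoded UMIs.

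The unnamed cluster 3, 970 cells led by Gsdmc2, Gsdmc3 and Car4, combined some carriers at enterocyte-like levels with others far lower. Of 58 members compared 8 were higher and 15 lower, where 19.9% and 10.5% of 11652 genes were. Slc6a20a, at 426 CPM, and Slc7a8, at 180.5, were less than 2-fold from their enterocyte-like levels, while Slc34a2 was at 23.4 (18.1-fold lower, 14.4 to 23.2), Slc7a15 at 12.6 (13.6-fold), Slc30a10 at 2.46 (17.6-fold) and Slc23a1 at 4.62 (11.5-fold). Slc23a2 was 2.00-fold higher (1.77 to 2.27) and Slc6a4 2.20-fold (1.75 to 2.79), and Slc7a1 4.57-fold (3.48 to 6.09). The enterocyte markers stood at 10455 CPM in this cluster.

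Promoter peaks, open chromatin within 1000 bases of a start site, were found for 69 members, all but Slc22a14 and Slc6a20b, and are given as fragments per 1000000 fragments in peaks. Between crypt progenitor-like and enterocyte-like cells 12 of 69 member promoters were at least 2-fold higher in the crypt and 6 lower, where 21.2% and 5.11% of 22710 promoters were. The median log2 ratio was 0.22 over the members and 0.30 over all genes. Every one of the 18 members with higher RNA in the crypt had a promoter ratio above 1, and 19 of the 22 with lower RNA and a promoter peak had one below 1. The same shares over all genes are not given. Both promoter medians above were positive, so a ratio above 1 was common whatever the RNA. Over the 68 members measured in both, the log2 ratios of RNA and promoter had a Pearson r of 0.77, and over 11833 genes one of 0.50. The genes are not independent replicates, and both readouts come from the same cells and clusters. In the other comparisons with enterocyte-like cells, which share that group, the members gave an r of 0.85 (goblet-like, n = 65), 0.83 (Paneth-like, n = 59), 0.80 (enteroendocrine-like, n = 54) and 0.78 (tuft-like, n = 48), where all genes gave 0.61, 0.58, 0.63 and 0.55.

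The promoter of Slc23a1 differed most in the crypt comparison, at 4.16 in crypt progenitor-like and 36.2 in enterocyte-like cells, a log2 ratio of -3.12 (-3.41 to -2.84). The promoters of Slc7a15 (-1.63), Slc30a10 (-1.38), the lactate carrier Slc16a3 (-1.11), Slc34a2 (-1.07) and Slc13a2 (-1.01) followed, each with a smaller ratio than its RNA. The letters upstream of the last 2 are those printed above, where Slc13a2 had no match to any of the 5 motifs. On the crypt side the promoter of Slc16a7 was at 13.9 against 2.31 (log2 2.59, 2.15 to 3.07), that of Slc22a3 at 12.9 against 2.51 and that of Slc6a9 at 16.1 against 3.67. The promoter of Slc7a1 moved little beside its RNA, with a log2 ratio of 0.44.

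**Figure D5:**
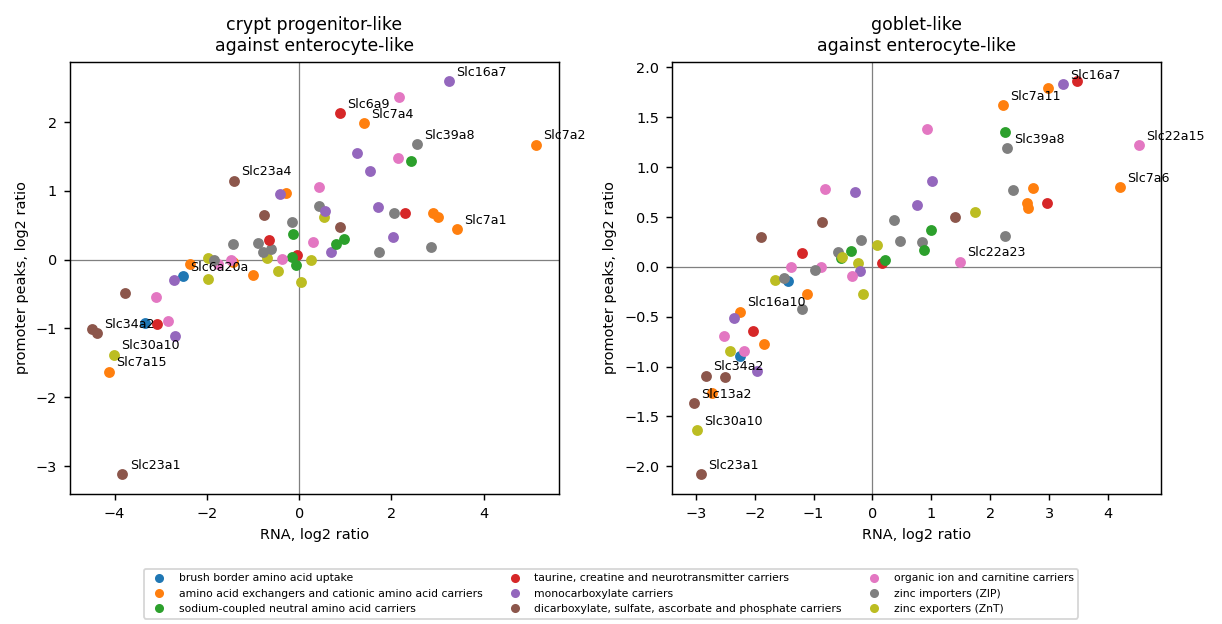
Log2 ratio of RNA (horizontal) and of promoter peak fragments (vertical) for 68 members in crypt progenitor-like against enterocyte-like cells and 65 members in goblet-like against enterocyte-like cells, coloured by role. Points run from the lower left to the upper right, with Pearson r of 0.77 and 0.85, and Slc23a4 on the left lies off the trend.

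In goblet-like cells 9 of 69 member promoters were higher and 7 lower, where 13.3% and 3.91% of promoters were. In Paneth-like cells 12 of 67 were higher and 10 lower (17.8% and 5.74% of all), in enteroendocrine-like cells 13 and 10 (22.8% and 6.36%), and in tuft-like cells 11 and 12 (20.2% and 5.77%). In these 4 classes the share of member promoters that were lower was above that of all promoters. The Slc7a11 promoter, with the 2 amino acid response matches printed above, was at 13.8 in goblet-like and 4.47 in enterocyte-like cells (log2 1.62, 1.27 to 1.98), but also at 14.8 in Paneth-like cells, whose RNA was at 6.96, and highest, at 15.1 on 15 fragments, in tuft-like cells, which had 0 UMIs of its RNA. That of Slc16a7 was at 24.7 in Paneth-like cells (log2 3.42, 2.86 to 3.99) and that of Slc38a11 at 3.45 against 0.503 on 7 and 10 fragments (2.78, 1.15 to 4.32). The promoters of Slc16a7 and Slc38a11 were each most open, among the 6 classes, in the class with the highest RNA. The promoter of Slc22a23 was at 34.8 in goblet-like and 33.6 in enterocyte-like cells, a log2 ratio of 0.05 (-0.11 to 0.20) beside a 2.81-fold RNA difference, and that of Slc23a4 was higher in the crypt (1.15, 0.94 to 1.36), where its RNA was lower.

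Along the villus and the gut the promoters differed little. None of 65 member promoters was 2-fold higher in the upper than in the lower villus bin and 2 were lower, where 1.03% and 4.69% of promoters were. The Slc23a4 promoter had a log2 ratio of 0.56 (-0.07 to 1.18) beside its 11.4-fold RNA difference. Between the distal and proximal bins 1 of 61 was higher and 2 lower, where 1.98% and 1.84% were, and that of Slc34a2 had a log2 ratio of 0.33 (-0.33 to 1.01). That of Slc23a1 was 2.81-fold lower distally (33 against 74 fragments), with its RNA. Smaller differences were not detectable at this depth.

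Several members may share reads with neighbours. Of the 71 members 36 overlap another RefSeq gene, such as Slc23a1 with Paip2 and Slc7a7 with Oxa1l, and whether the counting used strand is not given in the sources used here. Slc6a20a and Slc6a20b, and Slc22a4, Slc22a5 and Slc22a21, are related neighbours, so their counts are uncertain where reads could be split between them.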

How the data were processed

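RNA and open chromatin were measured in the same cells of 1 mouse, so the 2 samples are 2 libraries and not replicates. The deposited matrix, in the format of Cell Ranger ARC, holds raw counts of 12363 barcodes: 71697164 UMI counts over 55401 genes and 197564789 counts over 146191 peaks. Cell Ranger ARC 2.0.2 and mm10 are named in the submitters' processing notes. Of the deposited peak values, 87.6% were even, and values were divided by 2 and rounded up to give fragments.

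Barcodes with at least 500 UMIs, 300 genes and 1000 peak counts were kept. Scrublet set a threshold of 0.625 and marked 0 of 9872 cells, so it has not worked and doublets remain. Cells were clustered with scanpy 1.11.5 (1500 variable genes, 30 components, 15 neighbours, Leiden resolution 1, seed 1) without the carrier families, the 27 partner genes and mitochondrially encoded genes. A cluster was named where the median log2 ratio of a marker list reached 0.4 and exceeded the next list by 0.4. The stem and cycling lists were not set against each other. Too few detected markers, low depth with few leading markers, or more leading genes of another lineage could also leave a cluster unnamed. Cluster 8 lay at the limit, with rounded medians of 0.40 for enterocyte markers and 0.00 for the next list, and was not named. The calling rule was also run on simulated Poisson counts with known changes. Those counts hold no variation between cells or animals, no free RNA and no doublets, so they cannot show how the rule fares with these. Genes named in each comparison are the 8 with the largest ratio in each direction among those with at least 50 UMIs over both groups, and the class-marking members. Others named were chosen after their values were seen. The members, lists and cuts were chosen with earlier results of these data known. Promoter sequences are RefSeq's. Results for some members are not reported here, although the counts over members include them.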

Additional observations from a re-analysis of the deposited data

How the results depend on the processing

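No paired analysis was possible because all cells came from 1 animal, and no replicate could be left out. Among planned recounts of called members 137 stayed within 1.5 times the reported count and 35 did not, and among those added after the data were seen 19 did and 1 did not. With UMIs of all kinds as library size, members higher numbered 31 in crypt progenitor-like, 28 in goblet-like, 27 in Paneth-like, 21 in enteroendocrine-like and 15 in tuft-like cells and 1 in the upper villus bin, and those lower 13 in goblet-like, 17 in Paneth-like and 15 in enteroendocrine-like cells and 16 in the upper bin. All genes shift with the members on that scale, and in the 5 classes their median ratio stayed above that of the members. With each cell thinned to 500 nuclear-encoded UMIs fewer members could be compared: 10, 11, 7, 4 and 3 were higher in the 5 classes in that order, 2 were lower in the upper bin and 4 in the distal one. With a minimum of 50 UMIs, 10 were higher in Paneth-like and 7 in enteroendocrine-like cells and 3 lower distally. With no minimum, 19 were higher in enteroendocrine-like and 20 in tuft-like cells and 9 distally. At a ratio of 1.5, 6 were higher and 15 lower in the upper bin, and 8 higher and 13 lower distally. In the upper bin 8 were lower without cells above 80% mitochondrially encoded UMIs, 1 was higher without the 8% of cells with the highest Scrublet scores and 1 without Apoa4 or Fabp6, and 5 were higher and 11 lower within the proximal bin. Within the upper bin 3 were higher distally and 2 lower. With a promoter window of 500 bases 1 promoter was lower in the upper bin. The shares of all genes called under each of these settings are not given, so these counts cannot be set beside a background. Cluster 8 against cluster 0, chosen after the data were seen as were the other recounts by cluster, gave 21 lower. Apart from the fewer members compared after thinning and higher minimums, the cause was not tested. Counts below about 20 UMIs in tuft-like, enteroendocrine-like and Paneth-like cells limit what could be seen there.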
